A study of Homo sapiens with 6 samples.

Results

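The genes examined here encode the proteins of the cytosolic ribosome. They are the rows of the count table whose symbol is RPL or RPS with a number and, where present, one of the endings A, X, L, AL or L1, together with RPLP0, RPLP1, RPLP2 and RPSA. This rule found 85 of 26485 gene rows, 53 named for the large and 32 for the small subunit. Of these, 77 are called main genes below, and the 8 whose symbol ends in L or L1 (RPL3L, RPL7L1, RPL10L, RPL22L1, RPL26L1, RPL36AL, RPL39L and RPS27L) are called paralogs. The rule used names and no measured value. RNA was taken from THP1, an established human acute monocytic leukemia cell line, after 6 h with Withaferin A (WFA), a steroidal lactone from plants, or with its solvent DMSO alone. The WFA concentration is 1 μM in the methods of the study and 1 mM in the sample labels. Each group had 3 libraries from separate experiments, all from unmodified THP1 cells, so the results describe 1 cell line. The experiment addressed how short exposure to WFA changes gene expression in these cells.

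A ribosome holds 1 copy of nearly every ribosomal protein, so the proteins are needed in matched amounts. Surplus copies that are not built into a subunit are degraded in the nucleus. Most ribosomal protein mRNAs begin with a C and an unbroken stretch of C and T (U in the RNA). This is the terminal oligopyrimidine or TOP motif, through which mTOR signaling and LARP1 control their translation. Several ribosomal proteins have roles of their own. RPL5 and RPL11 bind MDM2 together with 5S rRNA, RPS6 is the substrate that names the S6 kinases, and loss of 1 allele of RPS19 and others causes Diamond-Blackfan anemia. The paralogs are later copies, and some of them, such as RPL39L and RPL10L in the testis and RPL3L in striated muscle, are known for expression in particular tissues.

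The sequences around the annotated starts show how the genes that the results turn on differ in the C and T stretch over that start. They come from RefSeq (GRCh38.p14), each with 25 bases before the start and 20 bases from it on, and capitals mark the unbroken run of C and T that covers the start. RPS6 and RPS27 were among the main genes with the highest levels, RPS28 was the main gene that rose, and RPL36A was the main gene that fell.
RPS6: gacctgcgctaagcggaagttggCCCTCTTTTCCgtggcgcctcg
RPS27: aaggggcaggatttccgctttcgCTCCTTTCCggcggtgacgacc
RPS28: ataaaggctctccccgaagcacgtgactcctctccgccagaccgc
RPL36A: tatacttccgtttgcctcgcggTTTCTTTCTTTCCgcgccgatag
The starts of 5 paralogs that passed the filter on low counts follow, with the main genes RPL22 and RPL26 beside their copies. RPL39L is not shown.
RPL22: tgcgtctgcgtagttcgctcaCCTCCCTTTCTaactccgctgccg
RPL22L1: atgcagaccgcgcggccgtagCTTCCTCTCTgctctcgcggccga
RPL26: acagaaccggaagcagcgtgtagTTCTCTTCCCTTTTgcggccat
RPL26L1: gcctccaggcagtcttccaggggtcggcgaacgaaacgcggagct
RPL36AL: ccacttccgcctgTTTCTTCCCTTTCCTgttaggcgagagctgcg
RPL7L1: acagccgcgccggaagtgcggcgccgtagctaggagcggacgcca
RPS27L: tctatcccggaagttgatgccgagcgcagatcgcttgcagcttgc
RPS28 lies on the + strand at chr19:8321471-8321515 and RPL36A on the + strand at chrX:101390986-101391030. RPL7L1 (chr6:42879591-42879635, + strand) and RPL22L1 (chr3:170870176-170870220, - strand) are 2 of the paralogs that fell. The run was 11 bases in RPS6, 9 in RPS27, 13 in RPL36A, 10 in RPL22L1 and 15 in RPL36AL, and RPS28, RPL7L1, RPL26L1 and RPS27L had no C or T at the annotated start.

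Across the 62 main genes in the RefSeq promoter table, the median run was 11 bases, 45 (72.6%) had a run of 8 or more, and 49 (79.0%) started with a C. Among 15843 coding genes these shares were 6.3% and 14.9%. Of the 6 paralogs in the table, 2 had a run of 8 or more, RPL22L1 and RPL36AL. The letters CTTTC were found in the same 45-base window in 33 main genes (53.2%) and in 5.8% of coding genes, and their reverse complement GAAAG in 1 main gene (1.6%) and in 4.0% of coding genes. The search overlaps the C and T run and so describes the same stretch. The table held 68 of the 85 genes.

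Libraries held between 11006035 and 13872810 counts, and 80 of the 85 genes passed the filter on low counts, 74 main genes and 6 paralogs. Those that did not pass included RPS18, RPS9, RPL3L and RPL10L. Expression is given as CPM, counts scaled to a common library size with the TMM factors of edgeR. Of 10 markers of monocytic leukemia cells, 9 had at least 10 counts in a library, and MEIS1 was at or near 0. The T cell and red cell markers were at or near 0 in every library. One fibroblast marker moved with the treatment, COL1A1, from 0.453 CPM on average with DMSO to between 8.54 and 12.6 CPM with WFA, while DCN and KRT19 stayed at or near 0, and its part in the results was not tested. In bulk RNA, fewer cells of a type and less RNA per cell cannot be told apart.

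The ribosomal protein genes together took 6.64%, 7.48% and 5.87% of all counts in DMSO replicates 1, 2 and 3, and 6.39%, 7.33% and 6.56% in the WFA replicates. The WFA values lay within the range of the DMSO values, and the mean share was 6.66 ± 0.802% with DMSO and 6.76 ± 0.498% with WFA (SD, 3 libraries each). The difference of 0.098 percentage points gave p = 1.0 in a two-sided exact permutation test, in which 3 libraries against 3 cannot go below 0.1. Within the pairs of same-numbered libraries the share changed by -0.248, -0.149 and 0.692 percentage points. Replicate 2 was the highest library of both groups and the third DMSO library was the lowest of all 6. The large subunit genes took 4.07 ± 0.493% with DMSO and 4.11 ± 0.322% with WFA, and the small subunit genes took 2.60 ± 0.31% and 2.65 ± 0.178% (SD, 3 libraries each). With the 100 most counted other genes left out of the total, the shares were 7.98 ± 1.02% and 8.58 ± 0.6% (SD, 3 libraries each, exact permutation p = 0.4). The 8 paralogs took between 0.0354% and 0.0372% of counts with DMSO and between 0.0273% and 0.0291% with WFA, so that the groups did not overlap (exact permutation p = 0.1, the smallest possible).

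**Figure D1:**
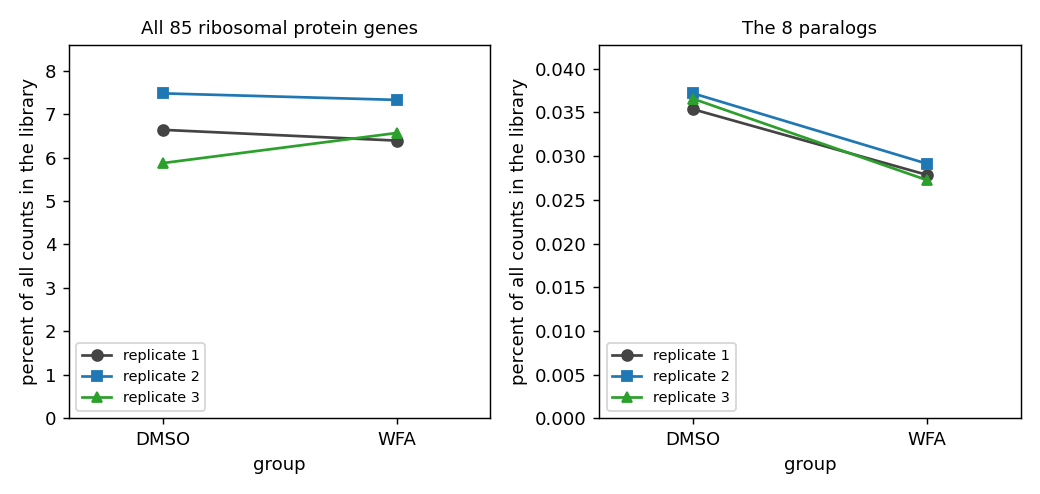
Share of all counts in a library (percent, y axis from 0) on the 85 ribosomal protein genes (left) and on the 8 paralogs (right), with lines joining the DMSO and WFA libraries of the same replicate number. The share of all 85 genes was slightly lower with WFA in replicates 1 and 2 and higher by 0.692 percentage points in replicate 3, and the share of the paralogs was lower with WFA in all 3 replicates.

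At 6 h most ribosomal protein genes showed no change that passed the test. By the quasi-likelihood test of edgeR, with p-values adjusted over 12854 genes by the Benjamini-Hochberg method, 1 member was higher with WFA (RPS28) and 4 were lower (RPL36A, RPL7L1, RPL39L and RPL22L1), against 25.8% and 24.7% of all tested genes. The other 75 did not pass. With the replicate number as a block, 18 members were higher, all of them main genes, and the same 4 were lower, against 30.2% and 28.8% of all tested genes in that fit (59.0% in either direction, and 50.5% without the block). The 3 WFA libraries lay above all 3 DMSO libraries for RPS2, RPS27 and RPS28, where 29.6% of all tested genes did so, and below them for the same 4 genes that fell, where 28.5% did so. The median log2 fold change of WFA over DMSO (log2FC) was 0.08 over the 74 main genes, -0.30 over the 6 tested paralogs and 0.02 over all tested genes. It was 0.04, 0.01 and 0.25 over the main genes in pairs 1, 2 and 3, and it was -0.38, -0.36 and -0.29 over the paralogs. The median of the main genes was -0.004 without the third DMSO library and 0.19 without the second.

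**Figure D2:**
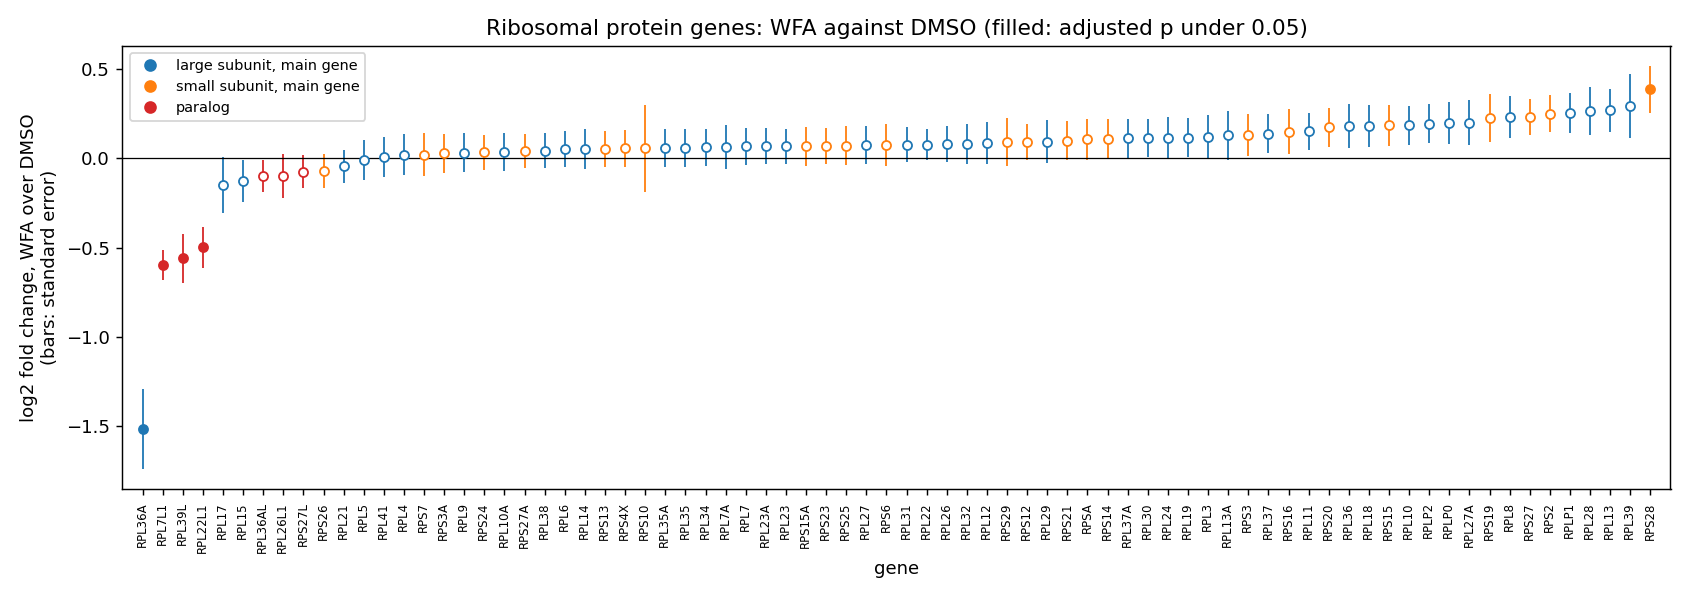
Log2 fold change of WFA over DMSO (y axis) with its standard error for 76 of the 80 tested ribosomal protein genes, ordered by value, with filled points for an adjusted p under 0.05. RPL36A lies lowest at -1.52, the paralogs RPL7L1, RPL39L and RPL22L1 follow, and RPS28 lies highest at 0.39.

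The main genes moved little from one another. Among the 70 with a mean log2 CPM of 6 or more, the log2FC values ran from -0.13 (RPL15) to 0.39 (RPS28) with an SD of 0.086 across genes. The SD was 0.774 across 605 other genes with a mean log2 CPM of 8 or more. The standard error of a single gene was between 0.088 and 0.137. It includes differences between libraries that many of these genes shared, so it is no measure for the spread among genes. For 65 of the 70, the interval of 2 standard errors on either side of the fold change included 0, and it ran no lower than -0.36 and no higher than 0.65 for any of them. The third DMSO library held the lowest CPM of the 6 libraries for 70 of the 74 main genes, and the second WFA library held the highest for 38.

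RPS28, a small subunit protein, had 208, 206 and 150 CPM in DMSO replicates 1, 2 and 3 and 210, 288 and 238 CPM in the WFA replicates. The WFA values were all higher, but the first WFA library exceeded the highest DMSO library by little. Its log2FC was 0.39 ± 0.13 (SE, edgeR adjusted p = 0.023), and within pairs it was 0.02, 0.49 and 0.67. The call was lost without the third DMSO library (edgeR adjusted p = 0.114), without the second WFA library (adjusted p = 0.12) and with scaling by total counts (adjusted p = 0.0592), and it held in 12 of 15 alternatives. RPS2, a protein at the mRNA entry side of the small subunit, went from 974 ± 102 to 1159 ± 99.6 CPM (SD, 3 libraries each), with a log2FC of 0.25 (edgeR adjusted p = 0.059, and 0.00462 with the block). RPS27, a zinc finger protein of the small subunit, went from 969 ± 108 to 1139 ± 65.8 CPM (SD, 3 libraries each), with a log2FC of 0.23 (edgeR adjusted p = 0.0736, and 0.00841 with the block). Both had all WFA libraries above all DMSO libraries, and RPS2 also passed with DESeq2's Wald test. RPS2 shared 69.4% of its 50-base windows with transcripts of other genes, so reads of its copies may not be told apart.

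Among small subunit main genes with known roles, RPS6 had 3173, 3772 and 2784 CPM with DMSO and 3332, 3662 and 3272 CPM with WFA in replicates 1, 2 and 3. The WFA libraries lay inside the DMSO range, and its log2FC was 0.08 (2 standard errors on either side gave -0.16 to 0.32). RPS19, the gene most often mutated in Diamond-Blackfan anemia, had a log2FC of 0.23 (edgeR adjusted p = 0.178, and 0.00924 with the block). Its first WFA library held 583 CPM and its first DMSO library 607 CPM, while the other pairs differed upward by 0.26 and 0.49 on the log2 scale. RPS14, lost in the 5q- syndrome, had a log2FC of 0.11 (-0.12 to 0.34). RPS3, which lines the mRNA entry and also takes part in DNA repair, had one of 0.13 (-0.10 to 0.37). RPSA, also known as the laminin receptor, had one of 0.11 (-0.12 to 0.34). RPS4X, the X-linked copy of RPS4, RPS25, needed by some viral internal ribosome entry sites, and RPS27A, made as a fusion with ubiquitin, had 0.06, 0.07 and 0.04. None of these passed the test. Of the 18 tested genes on the Diamond-Blackfan list, RPS28 was higher and none was lower, and 4 were higher with the block, where 25.8% of all tested genes were higher without the block and 30.2% with it.

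In the large subunit, no main gene passed as higher (0 of 46 by edgeR and by DESeq2, 2 at an unadjusted p under 0.05, 10 with the block) and RPL36A fell. Of all tested genes, 25.8% were higher and 24.7% lower by edgeR. With DESeq2 21.0% were higher, and with the block 30.2% were. RPL5 and RPL11, which form the 5S particle, had log2FC values of -0.01 (-0.24 to 0.22) and 0.15 (-0.06 to 0.36). RPL5 had 2091, 2494 and 1920 CPM with DMSO and 2105, 2345 and 2019 CPM with WFA, so that the groups overlapped throughout. The proteins of the P stalk, which recruits elongation factors, were RPLP0, RPLP1 and RPLP2, with log2FC values of 0.20, 0.25 and 0.19 (edgeR adjusted p = 0.178, 0.0765 and 0.154). RPLP1 had 764, 818 and 626 CPM with DMSO and 794, 975 and 861 CPM with WFA. All 3 stalk genes were higher with WFA within each pair, and all 3 passed with the block (edgeR adjusted p = 0.0272, 0.00369 and 0.0271). When G+C content was corrected as well, the block value of RPLP2 went from 0.20 to 0.06 and its call was lost (adjusted p = 0.401). The 8 genes of the rim of the peptide exit tunnel gave no call in either direction (0 by edgeR, also at an unadjusted p under 0.05, and 0 by DESeq2), with a median of 0.08. With the block 1 was higher at an unadjusted p and 0 after adjustment, and RPL39 passed with the block and the G+C correction together (edgeR adjusted p = 0.0334). RPL10A, RPL13A, a protein released from the ribosome to silence inflammatory mRNAs, RPL38, linked to translation of Hox mRNAs, and RPL41, the smallest ribosomal protein, had log2FC values of 0.04, 0.13, 0.04 and 0.01. None of these passed the test.

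With the block, 18 of the 74 tested main genes were called higher, where 30.2% of all tested genes were. These 18 main genes included RPL8, RPL10, RPL13, RPL18, RPL27A, RPL28, RPL36, RPLP0, RPLP1, RPLP2, RPS2, RPS15, RPS19, RPS20, RPS27 and RPS28. This number was 16 when base composition was corrected as well, but these were not all the same genes. Those that no longer passed included RPL8, RPL18, RPL36, RPLP2 and RPS15. Those that passed only with the block and the correction together included RPL11 (edgeR adjusted p = 0.0311) and RPL39. The block removes the difference between experiments and leaves 2 residual degrees of freedom in place of 4. Its prior degrees of freedom were infinite, against 10.8 without the block. Among these genes, RPL13 had log2 differences of -0.04, 0.36 and 0.49 in pairs 1, 2 and 3, and RPL28 had 0.06, 0.26 and 0.51. The first pair thus differed little, and the third the most, in both.

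These differences moved with base composition. Across the 70 well-counted main genes, the log2FC rose with the G+C content of the transcript (Pearson's r = 0.53, Spearman's rho = 0.53), where r was 0.10 across 12024 tested genes. The values of r were -0.14, 0.58 and 0.53 in pairs 1, 2 and 3. The points are genes measured in the same 6 libraries and are not independent, and libraries of 1 group also differed with G+C content. The second WFA library minus the first gave r = 0.47, and the second DMSO library minus the first gave r = -0.42. After correction for base composition r was -0.04. The correction takes out the trend of each library with G+C content, so a value near 0 was built in. The 11 tested main genes on chromosome 19 had a median log2FC of 0.19 and the 63 on other chromosomes 0.08. Other genes showed the same order, with 0.13 over 868 genes on chromosome 19 and 0.01 over 10732 elsewhere. The part of base composition in these fold changes was not tested.

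**Figure D3:**
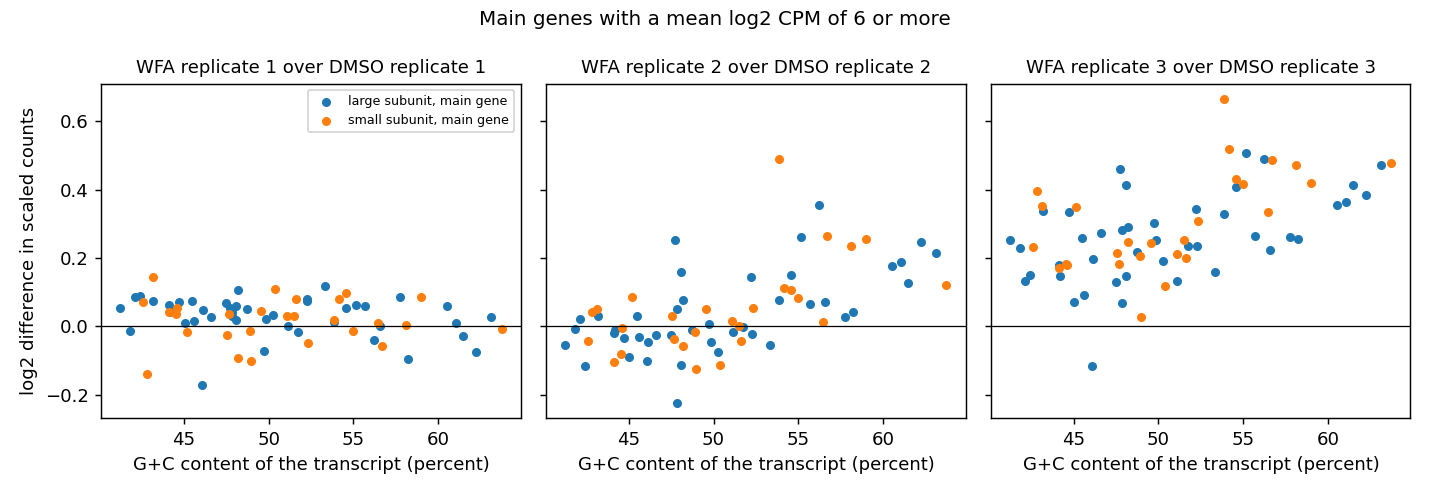
Log2 difference between the WFA and the DMSO library of the same replicate (y axis) against the G+C content of the transcript in percent (x axis) for the 70 main genes with a mean log2 CPM of 6 or more, with large subunit genes in blue and small subunit genes in orange. The points are flat in pair 1 (r = -0.14) and rise in pairs 2 and 3 (r = 0.58 and 0.53), and pair 3 lies above 0 for nearly all genes.

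RPL36A, an X-linked large subunit gene, had the largest change of any member. It had 7.81, 9.16 and 13.8 CPM in DMSO replicates 1, 2 and 3 and 3.35, 3.79 and 3.54 CPM in the WFA replicates. All WFA libraries were lower than all DMSO libraries, and the third DMSO library stood above the others. The log2FC was -1.52 ± 0.22 (SE, edgeR adjusted p = 5.1e-05). It lay between -1.69 and -1.25 when any 1 library was left out. These values rest on between 38 and 166 counts per library. RPL36A shared 34.1% of its 50-base windows with the annotated read-through transcript RPL36A-HNRNPH2, which is listed at 0 in every library. Its neighbor HNRNPH2 had a log2FC of 0.16 (edgeR adjusted p = 0.586). The autosomal paralog RPL36AL had 120, 133 and 113 CPM with DMSO and 115, 120 and 107 CPM with WFA. Its log2FC was -0.10 (-0.28 to 0.08, edgeR adjusted p = 0.371), with overlapping groups. Their coding sequences were 89.9% identical over 318 aligned bases. The log2 ratio of RPL36AL to RPL36A counts was 3.61 ± 0.506 with DMSO and 4.98 ± 0.093 with WFA (SD, 3 libraries each).

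RPL7L1, a relative of RPL7 that binds early large subunit precursors, fell the most surely of the paralogs. It had 114, 117 and 126 CPM in the DMSO replicates and 78.5, 82.5 and 75.1 CPM in the WFA replicates. All WFA libraries were lower than all DMSO libraries, and each group was tight. Its log2FC was -0.60 ± 0.08 (SE, edgeR adjusted p = 3.22e-05). RPL7 itself went from 1475 ± 174 to 1546 ± 69.8 CPM (SD, 3 libraries each), a log2FC of 0.07 that did not pass (adjusted p = 0.612). The coding sequences of the pair were 59.2% identical, the lowest of all pairs.

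RPL39L, a copy of the tunnel protein RPL39, had 16.3, 14.1 and 14.8 CPM with DMSO and 10.9, 9.67 and 10.1 CPM with WFA. The groups did not overlap, and the log2FC was -0.56 ± 0.14 (SE, edgeR adjusted p = 0.00296). RPL39 had 8.72, 11.3 and 7.50 CPM with DMSO and 12.3, 12.1 and 9.21 CPM with WFA, a log2FC of 0.29 (edgeR adjusted p = 0.186). Its groups overlapped through the third WFA library. RPL39L was counted above RPL39 in all 3 DMSO libraries and below it in 2 of the 3 WFA libraries. The coding sequences were 94.8% identical over 153 bases, and 36.7% of the 50-base windows of RPL39 were shared with transcripts of other genes, against 2.55% of those of RPL39L.

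RPL22L1, the paralog of the RNA-binding protein RPL22, had 21.0, 21.9 and 20.8 CPM with DMSO and 15.5, 14.8 and 14.7 CPM with WFA. The groups did not overlap and varied little within themselves, and the log2FC was -0.50 ± 0.12 (SE, edgeR adjusted p = 0.00233). RPL22 had a log2FC of 0.08 (-0.10 to 0.25, edgeR adjusted p = 0.487). The coding sequences were 68.6% identical, and 0.69% of the windows of RPL22L1 were shared with other genes. RPL26L1, a near copy of RPL26 (84.1% identical), had 21.7, 20.4 and 19.4 CPM with DMSO and 17.3, 20.9 and 19.3 CPM with WFA. Its log2FC was -0.10 (-0.34 to 0.15), and the groups overlapped. RPS27L, a p53 target related to RPS27 (77.8% identical), had 51.5, 60.2 and 54.9 CPM with DMSO and 52.6, 52.0 and 53.5 CPM with WFA, a log2FC of -0.08 (-0.26 to 0.11). RPL3L, with RPL3 as its main gene, and RPL10L, with RPL10, had 0 counts in every library, while RPL3 and RPL10 had 1505 ± 238 and 587 ± 75.9 CPM with DMSO (SD, 3 libraries each). A count of 0 is uncertain to 3 counts a library and covers counting error only.

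The ratio of a paralog to its main gene within a library does not depend on scaling between libraries. The log2 ratio of RPL22L1 to RPL22 was -4.33, -4.36 and -4.23 in the DMSO replicates and -4.85, -4.94 and -4.86 in the WFA replicates, a difference of -0.58. The ratio of RPL7L1 to RPL7 differed by -0.67, that of RPL39L to RPL39 by -0.85 and that of RPS27L to RPS27 by -0.31. RPL36AL to RPL36A went the other way by 1.38. In these 5 pairs the groups did not overlap, which gave p = 0.1 in exact permutation tests, the smallest possible, and 0.12 after adjustment over the 6 pairs compared. None therefore passed a threshold of 0.05, which 3 libraries against 3 cannot reach. RPL26L1 to RPL26 differed by -0.19 with overlapping groups (exact permutation p = 0.3). The nearest libraries of the RPS27 pair were -4.31 with DMSO and -4.36 with WFA. The ratios to RPL36A and RPL39 rest on few counts of the main gene. RPL36A had between 38 and 166 counts per library and RPL39 between 90 and 151. Each shared 36.7% of its windows with transcripts of other genes.

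**Figure D4:**
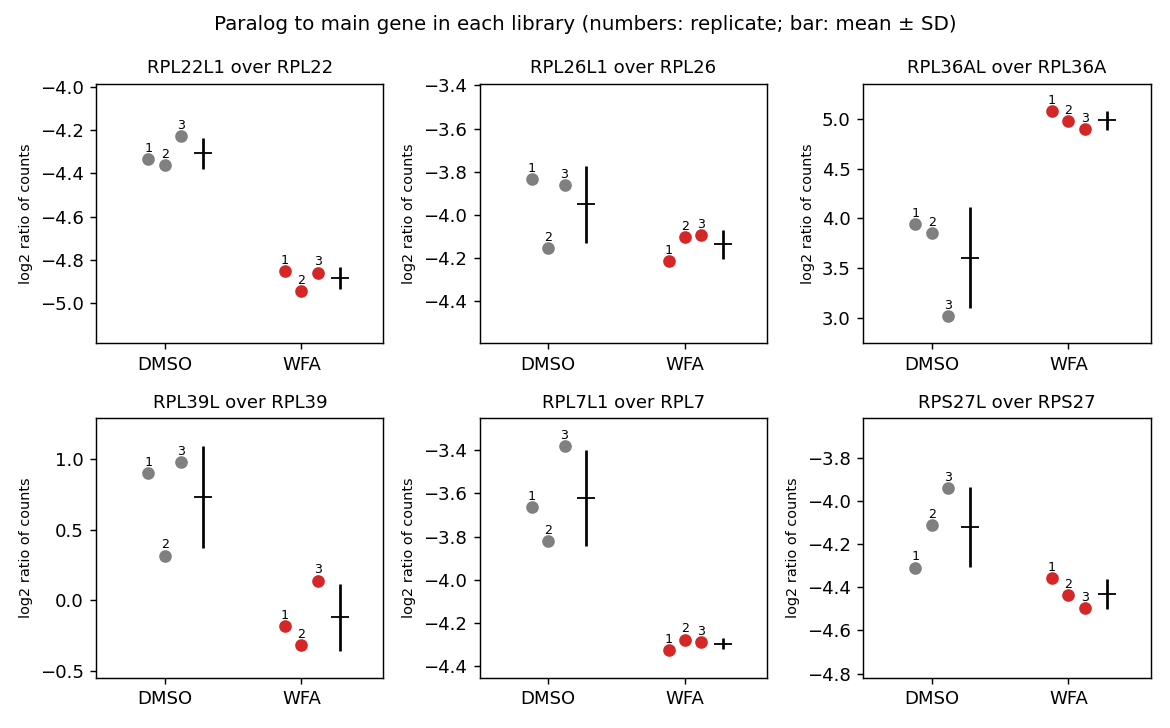
Log2 ratio of paralog to main gene counts (y axis) in each library for the 6 pairs that could be compared, with replicate numbers beside the points and the mean ± SD as a bar (n = 3), each panel on its own scale. The groups are apart in every pair except RPL26L1 over RPL26, and only RPL36AL over RPL36A is higher with WFA.

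Levels can be compared between genes only per length, and they are given here as CPM per kilobase of coding sequence. The median over the 74 tested main genes was 1530 with DMSO and 1700 with WFA. The highest included RPS6 with 4342 ± 666, RPL37A with 3871 ± 600, RPS27 with 3846 ± 430 and RPL30 with 3573 ± 473 (SD, 3 libraries each, DMSO). Neighbors in this order differed by less than their SD. Most main genes lay close to one another, and 69 of the 74 were within 4-fold of the median. The 5 lowest were RPS26 with 292 ± 33.6, RPL39 with 59.9 ± 12.7, RPL36A with 24.1 ± 7.42, RPL17 with 18.8 ± 2.54 and RPS10 with 6.52 ± 1.5 (SD, 3 libraries each, DMSO). The last 4 were under 10% of the median. The order hardly changed with WFA (r = 0.99 and rho = 0.99 between the groups over 74 genes). Coding length leaves out the untranslated ends, from which reads are also counted, so a gene with long ends comes out too high. With the length of all annotated exons instead, 4 of the 5 lowest and 4 of the 5 highest were the same genes, and RPL37A, with 276 coding and 3647 exon bases, went from rank 2 to rank 57.

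**Figure D5:**
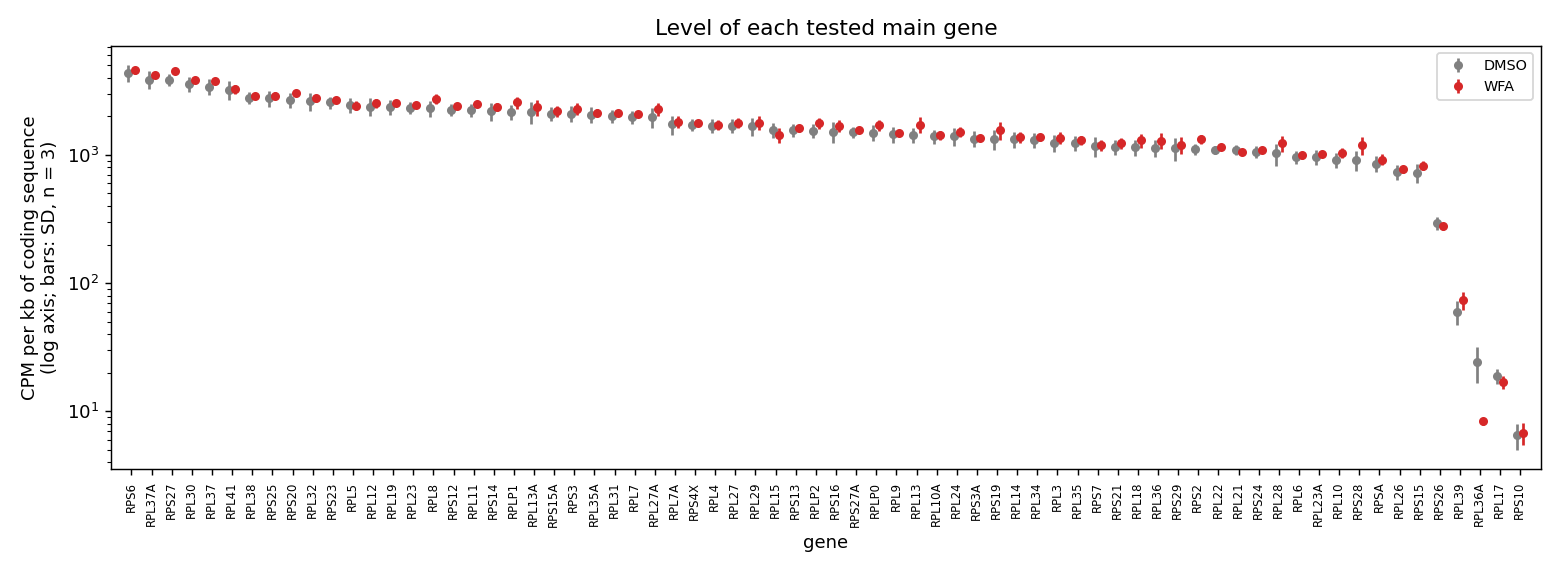
CPM per kilobase of coding sequence (log axis) for 70 of the 74 tested main genes, ordered by the DMSO mean, with mean ± SD over 3 libraries for DMSO (grey) and WFA (red). The level declines gradually from RPS6 on and then drops to RPS26, RPL39, RPL36A, RPL17 and RPS10, and RPL36A is the only one of these where the groups stand apart.

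The low main genes share sequence with other annotated genes. RPS10, a small subunit protein, had between 29 and 55 counts per library and shared 87.1% of its windows with other genes, 82.0% with the read-through transcript RPS10-NUDT3. RPL17 had between 95 and 157 counts and shared 48.4%, of which 47.1% of all windows with RPL17-C18orf32. Both read-through genes are listed at 0 in every library. RPS26 shared 56.8% of its windows. Over all 74 genes the level and the shared percentage were weakly related (r = -0.39, rho = -0.36), and RPS2 and RPSA, with 69.4% and 62.6% shared, were not among the low genes. How reads that match several genes were counted is not given in the sources used here, so these levels are uncertain. Neither RPS10 nor RPL17 passed the test, with log2FC values of 0.06 (-0.43 to 0.55) and -0.15 (-0.47 to 0.17). The 31 rows named as ribosomal protein pseudogenes held 3152 counts in all, where the members held 4998167.

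RPS18 and RPS9 are essential small subunit genes, and they were nearly without counts. RPS18 had 1, 1 and 0 counts in the DMSO replicates and 0 in each WFA replicate. RPS9 had 4, 5 and 1 counts with DMSO and 2, 10 and 0 with WFA. These genes were left out of every fold change. Their neighbors in the genome were also low. Within 200 kb of RPS18, at chr6:33272075-33276511 in GRCh38.p14 beside the HLA-DP genes, 16 of 20 coding genes (80.0%) had under 10 counts in all 6 libraries together. They included RXRB, VPS52, RING1 and KIFC1 with 0 each. Within 200 kb of RPS9, at chr19:54200858-54207647 among the leukocyte receptor genes, 17 of 19 (89.5%) were under 10 counts, including the splicing factor PRPF31 with 2, while LAIR1 had 719. The share was 19.7% (135 of 687) around the 80 tested members. The starts of RPS18 and RPS9 are shown because both carry a TOP-like run, of 11 and 10 bases, as most main genes do.
RPS18: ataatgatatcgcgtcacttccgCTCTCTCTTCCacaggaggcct
RPS9: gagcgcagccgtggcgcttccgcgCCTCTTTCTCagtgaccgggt

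Main genes with a long and with a short run of C and T over the annotated start had close medians. A run that begins just beside the annotated start was not counted, so the short-run group may hold genes with a TOP stretch. The median log2FC was 0.09 over the 43 tested main genes with a run of 8 or more and 0.06 over the 17 with a shorter run. The median level was 1510 and 1340 CPM per kilobase of coding sequence with DMSO. The gene that rose, RPS28, had no run over its annotated start, but a stretch of C and T begins at the next base. The gene that fell, RPL36A, had a run of 13 bases.

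Ribosomal proteins with symbols outside the pattern gave no call. FAU, made as a fusion of RPS30 with a ubiquitin-like protein, and GNB2L1 (RACK1) had log2FC values of 0.19 and 0.04 (edgeR adjusted p = 0.194 and 0.836). FAU passed with the block (edgeR adjusted p = 0.0273). Other mRNAs known for a TOP start, which encode elongation factors and related proteins, gave 1 higher and 2 lower of 19 tested, where 25.8% and 24.7% of all tested genes were. TPT1, a translationally controlled protein, rose by a log2FC of 0.28 (edgeR adjusted p = 0.0375), a call that held in 9 of 15 alternatives. It was lost with total counts (adjusted p = 0.0977) and without any 1 of DMSO replicates 1 and 3 and the WFA replicates (edgeR adjusted p between 0.0689 and 0.101). The importin IPO5 and the nucleolar protein NPM1 fell, with log2FC values of -0.41 and -0.26 (edgeR adjusted p = 0.00134 and 0.0306). The call of NPM1 held in 11 of 15 alternatives and was lost without DMSO replicate 1 or 2 or WFA replicate 2 or 3 (edgeR adjusted p between 0.0607 and 0.113). EEF1A1, the most abundant elongation factor gene, went from 5710 ± 851 to 6529 ± 280 CPM (SD, 3 libraries each), with an adjusted p = 0.203, and 0.0418 with the block. With the block 4 of the list were higher and 5 lower, where 30.2% and 28.8% of all tested genes were.

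Genes for factors that carry single ribosomal proteins to the assembling subunits were mostly lower with WFA. Of 7 such genes 6 were lower and 1 was higher, where 50.5% of all tested genes were called in either direction, and their median log2FC was -1.05 against 0.02 over all tested genes. LTV1, which accompanies RPS3 on the small subunit, went from 193 ± 14.5 to 67.7 ± 4.65 CPM (SD, 3 libraries each), a log2FC of -1.51 ± 0.09 (SE, edgeR adjusted p = 7.3e-09). HEATR3, which brings RPL5 into the nucleus, went from 50.6 ± 2.12 to 18.6 ± 1.85 CPM (SD, 3 libraries each), a log2FC of -1.44 (edgeR adjusted p = 6.02e-08). GRWD1, a carrier of RPL3, went from 42.4 ± 1.14 to 20.5 ± 4.0 CPM (SD, 3 libraries each), a log2FC of -1.05 (edgeR adjusted p = 1.01e-05). PDCD2L, PDCD2 and BCCIP, of which PDCD2 and PDCD2L are linked to RPS2 and BCCIP to RPL23, had log2FC values of -1.29, -0.52 and -0.63. TSR2, the carrier of RPS26, had one of 0.40 (edgeR adjusted p = 0.00814). The carried proteins RPS3, RPL5, RPL3, RPS2, RPL23 and RPS26 had log2FC values of 0.13, -0.01, 0.12, 0.25, 0.07 and -0.07, and none passed the test. The difference between carriers and carried proteins was not itself tested.

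Of 16 tested genes that act on TOP mRNAs or on RPS6, 3 were higher and 6 lower, where 25.8% and 24.7% of all tested genes were. With the block 5 were higher and 6 lower, where 30.2% and 28.8% of all tested genes were, so these counts were near those of all genes. LARP1, which holds TOP mRNAs, went from 453 ± 56.3 to 315 ± 35.5 CPM (SD, 3 libraries each), a log2FC of -0.53 (edgeR adjusted p = 0.000923). RPTOR, the mTOR complex 1 subunit, had one of -0.46 (edgeR adjusted p = 0.0013) and MTOR one of -0.14 (adjusted p = 0.185). LARP4, an mRNA-stabilizing relative of LARP1, rose with a log2FC of 0.82 (edgeR adjusted p = 4.44e-06), and TSC1, an inhibitor of mTOR complex 1, with one of 0.70 (edgeR adjusted p = 8.66e-06). RPS6KB1, the main S6 kinase gene, had one of -0.32 (edgeR adjusted p = 0.00988) and RPS6KB2 one of 0.27 (adjusted p = 0.0705, and 0.0144 with the block). Among the related RSK kinases, RPS6KA2 rose with a log2FC of 1.46 (edgeR adjusted p = 7.14e-05), and RPS6KA1 and RPS6KA3 fell with -0.38 and -0.39.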

How the data were processed

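RNA-seq libraries (Illumina TruSeq RNA v2) of THP1 cells, 3 with DMSO and 3 with WFA, were compared. Per the file headers, the authors deposited raw counts of reads per gene, which were used here. They also deposited normalized counts, dispersions and means (score values), and their own comparison (fold as a ratio, log2 fold change, p-values and adjusted p-values), none of which were used. The submitters' processing notes name bcl2fastq 2.19, Trimmomatic, Bowtie2, Picard, featureCounts and DESeq2 with build hg38. The annotation, the strand setting and the treatment of multiply matching reads are not given in the sources used here. Names used by more than 1 row (2 names) were kept.

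Genes passing filterByExpr (minimum count 10) were tested with edgeR 4.0.16 in R 4.3.3, using TMM factors, the quasi-likelihood test and Benjamini-Hochberg adjustment over 12854 genes, with a threshold of 0.05. No library repeated another within sampling noise. Depth was 11006035 to 13872810 counts per library, and intervals are 2 standard errors on either side. Shares and log2 ratios (0.5 added to each count) were compared by exact two-sided permutation tests, and ratios only where every library had at least 10 counts of both genes. Same-numbered libraries share a code in the labels, and their deviations from the group means correlated across genes with r = 0.217, 0.333 and 0.245, against -0.256 to 0.004 for other combinations, so the numbers were taken to pair the libraries and fits with that block are given where they change a call. The block left 2 residual degrees of freedom in place of 4, and its prior degrees of freedom were infinite against 10.8.

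Shared windows, coding lengths, coding identity and G+C content came from GENCODE 29 transcripts (G+C for 93.5% of tested genes), starts and neighbors from RefSeq GRCh38.p14. Levels per length were planned per kilobase of exon and are given per kilobase of coding sequence, because annotated exons of several members include retained introns. The members and gene lists were chosen with earlier results of these data known. Named genes were all paralogs and their main genes, main genes past the threshold (up to 8 each way), the 5 highest and 5 lowest per length, the untested members, a list of members with known roles, and the 3 smallest p-values of each list. Genes named outside it (RPL8, RPL13, RPL15, RPL18, RPL23, RPL27A, RPL28, RPL36, RPS15 and RPS20, the remaining carriers, LARP1, RPTOR, MTOR, EEF1A1, the other kinases and the neighbors) were chosen after their values were seen. Alternatives were other scalings, no filter, the block, DESeq2 1.42.0 (Wald test), leaving out each library and, added after seeing the data, a correction for G+C content. Some genes that the rule selects are not reported here and are left out of the plots that name genes, but they were kept in every fit and count.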

Additional observations from a re-analysis of the deposited data

How the results depend on the processing

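RPL36A, RPL7L1, RPL39L and RPL22L1 were lower in all 15 alternatives, and no log2 fold change of the 52 named genes reversed its call in 780 combinations of gene and alternative (743 kept their side of the threshold, 13 fell below it and 24 rose past it). Of all tested genes, 25.8% were higher in the reported fit, 30.2% with the replicate block and 21.0% with DESeq2's Wald test. This share was not taken for the other alternatives. The number of members higher with WFA moved. It was 1 in the reported fit (5 at an unadjusted p under 0.05), 0 with total counts (1 unadjusted), 5 without the filter, 18 with the replicate block, 16 with the replicate block and the correction for G+C content, 2 with DESeq2's Wald test (RPS2 and RPS28) and between 0 and 4 when 1 library was left out. It was 0 without the third DMSO or the second WFA library (0 unadjusted in both, by edgeR), 4 without the second DMSO library and 3 without the first WFA library. The cause was not tested, and the fits without 1 library also have fewer libraries. The median log2 fold change of the paralogs was -0.38 with total counts and between -0.33 and -0.29 with 1 library left out, against -0.30. That of the main genes was between -0.004 and 0.19 with 1 library left out, and the share of counts on members differed by between -0.297 and 0.505 percentage points. With the replicate block no call other than those given in the text was changed among the members. The paralog ratios kept their direction with 1 library left out, with the block and with a pseudocount of 2. Counts limit RPS10, RPL17, RPL36A and RPL39, and levels of genes that share sequence depend on an unstated rule for reads that match several genes.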
